A study of Mus musculus with 2 samples.

Results

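The serpins are a superfamily of protease inhibitors and their non-inhibitory relatives, which mouse nomenclature sorts into clades by a letter in the gene symbol. The members described here are all 61 genes of the deposited table that are annotated as protein coding and have a symbol beginning with Serpin, out of 22046 protein-coding genes and 54532 genes in all. They comprise 24 genes of clade A, 26 of clade B, 3 of clade E, 2 each of clades F and I, and 1 each of clades C, D, G and H. RNA was sequenced from CT26, a mouse colon cancer cell line, in a pair of cultures. The first, whose cells are called Oct4/SOX2 cells below, was transfected with lentivirus that forces expression of mouse Oct4 and human SOX2, and the series' title calls it de-differentiated. The control, labelled wild type, received lentivirus with the empty expression vector. Both were grown for 4 days in the same serum-containing medium, and the labels name neither the promoter in the vector nor the share of cells carrying it. Because each group is 1 library, every difference below is between these libraries, without a replicate check and without a p-value.

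The control library held 32262408 reads assigned to genes and the Oct4 and SOX2 library 31521115. Pou5f1, the gene for Oct4, had 0 reads in control cells against 12406 in Oct4/SOX2 cells. The delivered SOX2 is the human gene, and the mouse Sox2 row of the table had 929 and 1525 reads. Of 10 colon epithelium markers 3 reached 1 FPKM (a read level scaled to gene length and library depth) in either library, namely Krt18, Krt20 and Lgals4. The epithelial defining genes Cdh1 and Epcam had 0 and 0 reads and 1 and 2 reads, so they were at or near 0 in both cultures, while all 5 mesenchymal markers were measured, 4 with a ratio above 0 and 1 below. Among these the filament gene Vim stood at 599 and 966 FPKM, Twist1, the 1 past 2-fold, at 40.1 and 97.6, and Sparc at 81.6 and 68.5. In bulk RNA, fewer cells expressing a gene and less RNA per cell cannot be told apart.

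Serpins share a fold with an exposed reactive centre loop that works as bait. When a target protease cuts the loop of an inhibitory serpin, the loop inserts into the body of the molecule and traps the protease in a covalent complex. Clade A holds secreted, mostly liver-made plasma proteins, clade B the intracellular ov-serpins, and the small clades C to I a mixture of coagulation, complement and tissue serpins. Some serpins, such as those of Serpinh1 and Serpinf1, do not inhibit proteases and act as a chaperone or a secreted factor.

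Few serpins were expressed in these cells, and the largest differences were a gain of Serpinb2 and a loss of Serpinf1. Only 8 of the 61 members, or 13.1%, reached 1 FPKM in at least 1 library, against 46.6% of all protein-coding genes. No read at all fell on 26 members, or 42.6%, against 28.8% of protein-coding genes, and 19 members had at least 20 reads in 1 library. Those described here are Serpinh1, Serpinb6a, Serpinb9b, Serpinf1, Serpinb9, Serpinb7 and Serpinb2. On a log2 scale of FPKM + 1, with Oct4/SOX2 cells set over control cells, 1 of the 8 was at least 2-fold higher (Serpinb2), 1 at least 2-fold lower (Serpinf1) and 6 lay within 2-fold. Serpinb2 reached 1 FPKM only in Oct4/SOX2 cells, where it was high, and Serpinf1 only in control cells. Over all 12401 genes measured at that level, 2.42% were at least 2-fold higher and 1.85% at least 2-fold lower. With 8 members, 1 call each way is a small count, and it is given as a description. The median log2 ratio of the 8 members was -0.33, with 5 below 0, and that of all measured genes was -0.01. This member median falls between values lying far apart and turned to 0.03 with no filter on low values and to 0.01 without the 50 highest genes in the scaling.

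**Figure D1:**
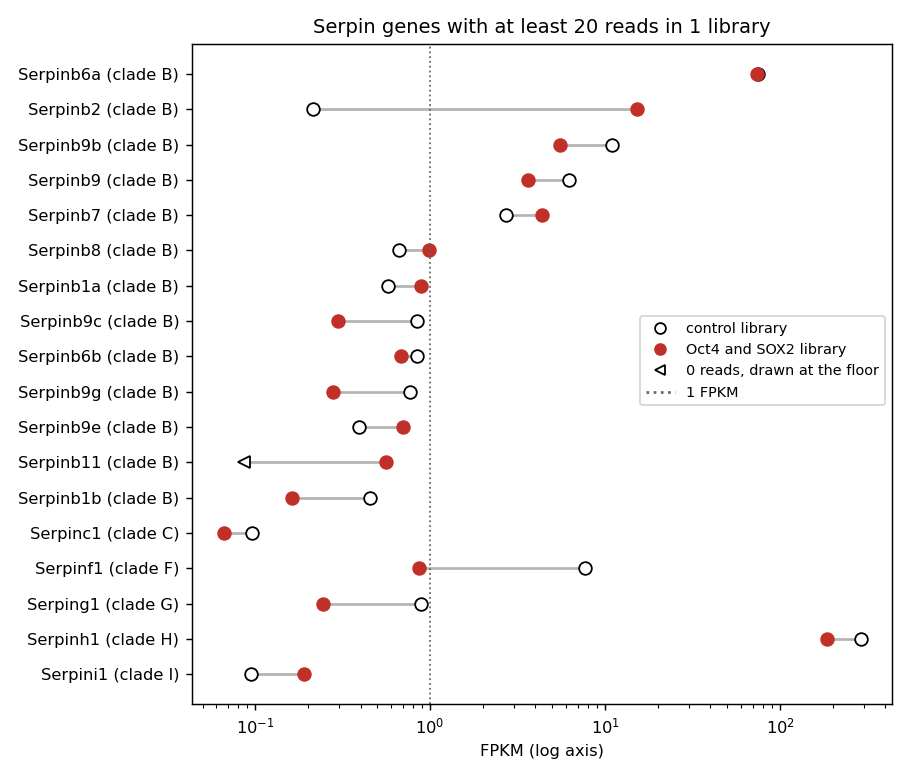
FPKM of 18 serpin genes with at least 20 reads in 1 library, on a log axis, ordered by clade, with an open circle for the control library and a filled circle for the Oct4 and SOX2 library. Serpinb2 shows the widest rise (0.213 to 15.2 FPKM) and Serpinf1 the widest drop (7.64 to 0.865 FPKM); Serpinb11 had 0 control reads and is drawn there at the floor of 6 reads.

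Added over the family, serpin transcripts stood at 406 FPKM in control cells against 303 in Oct4/SOX2 cells. Serpinh1 held 71.0% of that sum in control cells against 61.0% in Oct4/SOX2 cells, and Serpinb6a 18.5% and 24.3%. Without these 2 genes the sums were 42.6 and 44.6 FPKM. Serpinb2 moved from rank 19 of the 61 members in the control to rank 3 with Oct4 and SOX2, while Serpinf1 moved from rank 5 to rank 10. The order of the top 2 was the same in both libraries.

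**Figure D2:**
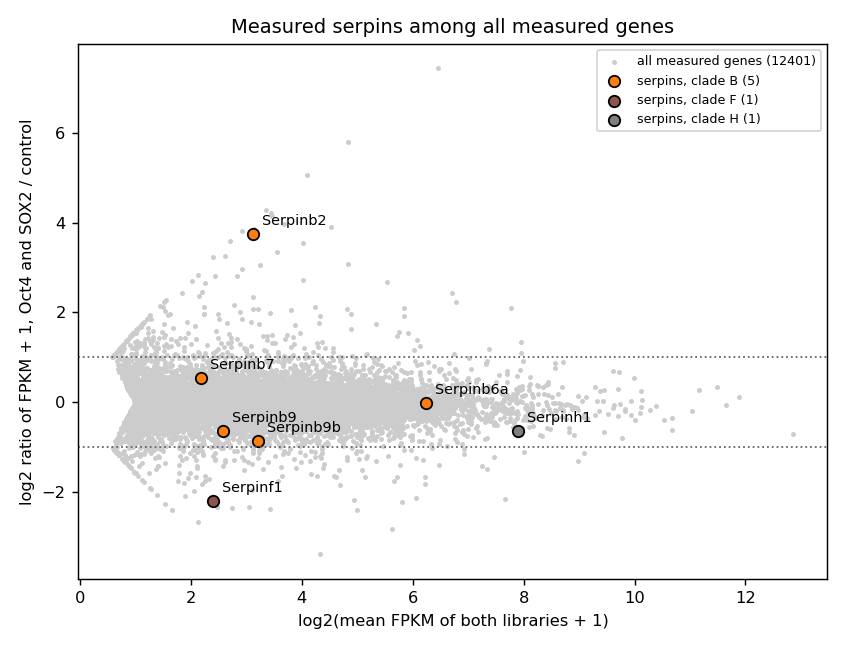
Log2 ratio of FPKM + 1 (Oct4 and SOX2 over control) against the log2 mean FPKM + 1 for the 12401 measured genes in grey, with 7 measured serpins coloured by clade; dotted lines mark 2-fold. Serpinb2 sits at 3.74 and Serpinf1 at -2.21, and the other 5 serpins shown lie between the lines.

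Serpinh1, the only clade H member, encodes HSP47, the collagen-specific chaperone of the endoplasmic reticulum. It was the most abundant serpin transcript, at 289 FPKM in control cells against 185 FPKM in Oct4/SOX2 cells. In plain FPKM it was 1.56-fold lower (95% counting interval 1.51 to 1.61), a log2 ratio of -0.64. Serpinh1 (ENSMUSG00000070436) lies on the minus strand of chromosome 7 from 99345376 to 99353239 in GRCm38. Of 28 listed collagen chain and collagen-folding genes 25 were measured, with 11 ratios above 0, 14 below and a median of -0.03. Col5a2, a fibrillar collagen chain gene, was the 1 gene of that list past 2-fold, at 0.265 FPKM in control cells against 3.90 in Oct4/SOX2 cells, 14.8-fold higher (10.7 to 20.8). It reached 1 FPKM only in Oct4/SOX2 cells, where it was high. Over all 12401 measured genes 2.42% were at least 2-fold higher. The remaining 24 lay within 2-fold on both sides of 0. The collagen I chains stood on opposite sides: Col1a1 was at 62.1 and 39.99 FPKM in control and Oct4/SOX2 cells, and Col1a2 at 185 and 306. These 2 chains and P3h1, a collagen prolyl hydroxylase gene at 11.1 and 6.28 FPKM, were singled out after their values were seen.

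The members shown here differ in the loop that defines the family. Below are the 30 codons before a conserved motif that closes the loop region, read from GENCODE M21 transcripts of the GRCm38 reference and printed 5' to 3' with alanine codons in capitals. In inhibitory serpins the hinge at the start of the loop is rich in alanine and other small residues.
Serpinb2: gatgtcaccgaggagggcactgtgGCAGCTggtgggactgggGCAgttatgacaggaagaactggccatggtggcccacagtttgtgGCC
Serpinb6a: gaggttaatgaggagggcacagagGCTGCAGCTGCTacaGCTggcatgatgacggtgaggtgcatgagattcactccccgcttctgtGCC
Serpinb9: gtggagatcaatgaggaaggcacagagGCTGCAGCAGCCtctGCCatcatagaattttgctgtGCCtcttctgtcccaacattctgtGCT
Serpinb9b: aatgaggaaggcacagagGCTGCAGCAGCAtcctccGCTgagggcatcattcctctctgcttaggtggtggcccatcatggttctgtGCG
Serpinf1: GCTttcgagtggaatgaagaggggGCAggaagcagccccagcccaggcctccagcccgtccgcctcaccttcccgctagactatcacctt
Serpinh1: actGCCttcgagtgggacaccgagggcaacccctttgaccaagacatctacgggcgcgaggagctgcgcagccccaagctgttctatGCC

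Serpinb6a and Serpinb9b had 6 alanine codons each in this stretch and Serpinb9 had 7, with a run of 4 near the start of the line in each. Serpinb2 had 4. The non-inhibitory Serpinf1 and Serpinh1 had 2 each, none of them adjacent to another. Across other members the count ran from 0 in Serpina1f to 8 in Serpinb12, with 2 in Serpinb1c of clade B. It covers the whole stretch and not only the hinge, and it was not tested as a mark of inhibition. The stretch covers codons 361 to 390 of 415 in Serpinb2 and codons 354 to 383 of 417 in Serpinh1. The reference is not the CT26 genome, and the loop was located by pattern, not by structure.

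Clade B falls into 2 chromosome clusters, with more reads in Oct4/SOX2 cells on the chromosome 1 cluster and fewer on the chromosome 13 cluster. A cluster was defined as at least 3 members with starts within 1 Mb of the next. The chromosome 1 cluster holds 11 members from Serpinb5 to Serpinb8, from 106861173 to 107610484 in GRCm38, and no other protein-coding gene of the table. The chromosome 13 cluster holds 15 members from Serpinb1a to Serpinb6a, from 32842092 to 34002794, with Nqo2 the 1 other measured protein-coding gene inside it. Reads on the chromosome 1 cluster went from 286 in the control to 1625 with Oct4 and SOX2, 5.69-fold higher in scaled reads (4.76 to 6.85). Without Serpinb2 they were 270 and 486, 1.80-fold higher (1.46 to 2.24). Reads on the chromosome 13 cluster were 15130 and 13939, a fold of 0.923, and without its most expressed member Serpinb6a they were 2162 and 1226, 1.76-fold lower (1.59 to 1.95). Most of these lay on Serpinb9b (1169 and 587 reads) and Serpinb9 (698 and 404). The other members lay on both sides, such as Serpinb9c at 54 and 19 reads and Serpinb9e at 24 and 43. On chromosome 1, 4 members had at least 20 reads in 1 library, all with a counting interval wholly above 1, but 2 of them (Serpinb2 and Serpinb11) reached 20 reads only in Oct4/SOX2 cells, where they were high. Of the 9 members on chromosome 13 with at least 20 reads none lay above 1, 4 lay below and 5 spanned 1. Among those below, Serpinb9c and Serpinb9g reached 20 reads only in control cells, where they were high. The difference between the clusters was not tested. Over all 14501 genes with at least 20 reads, 24.5% had an interval wholly above 1 and 27.5% wholly below.

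**Figure D3:**
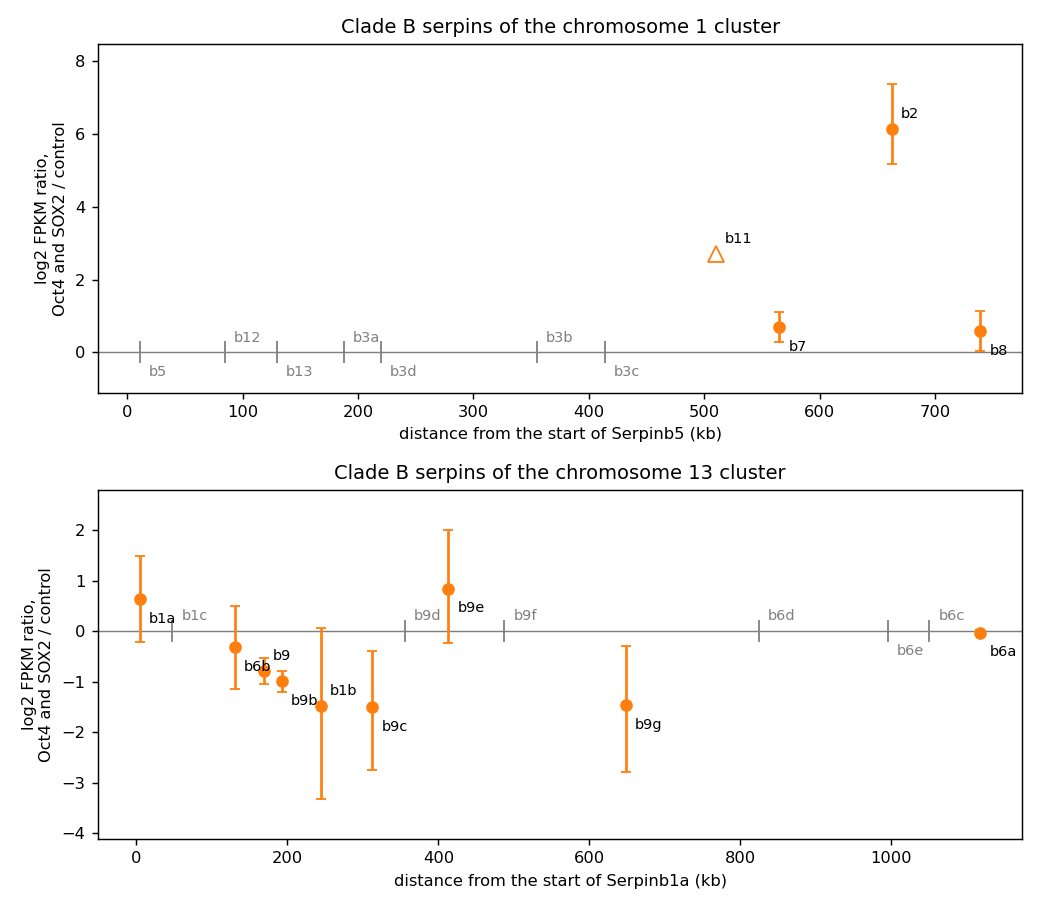
Log2 FPKM ratio (Oct4 and SOX2 over control) of clade B serpins along the chromosome 1 and chromosome 13 clusters, against distance in kb from the start of the first member; labels leave out the prefix Serpin, bars are 95% counting intervals, the open triangle is the ratio to the floor of 6 reads, and grey ticks are members under 20 reads. The 4 plotted members of chromosome 1 all lie above 0, and b9, b9b, b9c and b9g of chromosome 13 lie below it with their whole intervals.

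Serpinb2 encodes plasminogen activator inhibitor 2, an inhibitor of urokinase and tissue plasminogen activator that is known from stimulated macrophages and from keratinocytes. It had 16 reads or 0.213 FPKM in control cells against 1139 reads or 15.2 FPKM in Oct4/SOX2 cells. The libraries thus stood 71.3-fold apart (35.9 to 166). Serpinb2 (ENSMUSG00000062345) spans 107511423 to 107535478 on the plus strand, and its 3' part overlaps Serpinb10, annotated as a polymorphic pseudogene, which had 2 and 3 reads. In annotated transcripts 10.4% of the 50-base windows of Serpinb2 also occur in Serpinb10. Serpinb2 made up 0.212% of clade B FPKM in control cells against 14.1% in Oct4/SOX2 cells, and without it the clade B sums were 100.4 and 92.9 FPKM.

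Markers of the cells best known for Serpinb2 were present in part, and their share in the Serpinb2 level was not tested. Of 7 macrophage markers 2 were measured, Cd14 and Cd68. Control cells held Cd14 at 20.7 FPKM, above their Serpinb2 level, and Cd68 at 5.53, while Oct4/SOX2 cells held them at 16.2 and 4.27. The list summed to 27.0 FPKM in control cells against 21.1 in Oct4/SOX2 cells, with Adgre1 at 0 reads in both libraries and the leukocyte gene Ptprc at 2 reads in each, and Csf1r at 0 and 11 reads. Of 7 keratinocyte markers 2 were measured, Krt10 and Sfn, with sums of 3.995 and 3.35 FPKM and Ivl at 0 reads in both.

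The other 3 chromosome 1 members with at least 20 reads were higher as well. Serpinb7, the gene for megsin, known from kidney mesangium and skin, was at 2.71 FPKM in control cells against 4.36 in Oct4/SOX2 cells, from 169 and 272 reads, 1.61-fold higher (1.22 to 2.14). Serpinb8, whose product can inhibit furin, stood at 0.660 and 0.988 FPKM, 1.498-fold higher (1.04 to 2.18). Serpinb11 had 0 reads in control cells against 39 in Oct4/SOX2 cells, 6.51 times the level of a floor of 6 reads, with a lower counting limit of 4.81-fold. Serpinb3b, singled out after its values were seen, also had 0 reads in control cells but 19 reads, or 0.353 FPKM, in Oct4/SOX2 cells. It belongs to a group of close copies that share 14.7% of its 50-base windows. A further 6 members of the cluster had at most 4 reads, and 4 of them, Serpinb5, Serpinb12, Serpinb13 and Serpinb3d, had none. Vps4b, the nearest measured protein-coding gene on the Serpinb5 side, ends at 106796728, close to the cluster, and stood at 16.5 and 14.2 FPKM. On the other side the nearest was Dsel. It starts at 111858702, several Mb past the cluster's end at 107610484, so it is no close neighbour. Dsel stood at 2.92 and 5.08 FPKM, 1.74-fold higher (1.49 to 2.03).

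The sequence before the RefSeq start of these 4 genes is shown because they lie together and were all higher. Each line gives 250 bases on the gene's strand, which is the plus strand for all, from RefSeq on GRCm38.p6, and capitals mark the letters TGANTCA, a loose form of the AP-1 site. The windows are chr1:107362064-107362313 for Serpinb11, chr1:107422439-107422688 for Serpinb7, chr1:107511173-107511422 for Serpinb2 and chr1:107589756-107590005 for Serpinb8. The deposited gene positions start earlier for Serpinb11, at 107361198, and for Serpinb7, at 107399655, so these windows lie inside the genes as annotated there.
Serpinb11: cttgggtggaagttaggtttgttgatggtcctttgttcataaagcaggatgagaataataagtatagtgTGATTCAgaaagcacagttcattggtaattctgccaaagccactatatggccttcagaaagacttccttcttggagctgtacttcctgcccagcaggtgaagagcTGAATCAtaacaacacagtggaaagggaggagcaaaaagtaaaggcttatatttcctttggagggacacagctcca
Serpinb7: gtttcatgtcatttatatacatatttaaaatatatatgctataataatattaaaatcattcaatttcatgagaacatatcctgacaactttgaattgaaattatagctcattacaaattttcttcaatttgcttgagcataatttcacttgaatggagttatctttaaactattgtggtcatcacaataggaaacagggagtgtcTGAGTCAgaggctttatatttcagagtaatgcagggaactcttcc
Serpinb2: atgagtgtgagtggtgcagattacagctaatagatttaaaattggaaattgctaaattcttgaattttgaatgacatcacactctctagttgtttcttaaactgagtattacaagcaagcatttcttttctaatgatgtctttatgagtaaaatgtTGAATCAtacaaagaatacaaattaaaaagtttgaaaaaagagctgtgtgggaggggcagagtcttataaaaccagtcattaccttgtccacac
Serpinb8: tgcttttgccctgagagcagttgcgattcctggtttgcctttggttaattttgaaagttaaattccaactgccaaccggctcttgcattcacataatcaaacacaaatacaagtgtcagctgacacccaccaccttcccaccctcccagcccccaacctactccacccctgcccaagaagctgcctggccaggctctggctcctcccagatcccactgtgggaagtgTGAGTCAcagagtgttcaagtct

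All 4 windows hold TGANTCA, which was searched on both strands, while 7.82% of the 27025 genes with a promoter in the RefSeq table do. It starts at position -94 in Serpinb2, -45 in Serpinb7 and -23 in Serpinb8, where -1 is the base before the start, and at -181 and -76 in Serpinb11. RefSeq gives Serpinb2 a second start, from which the same letters lie at -181 and TATAAA at -116. The stricter letters TGAGTCA were in Serpinb7 and Serpinb8, or 2 of the 4, and in 5.16% of all genes. Over the whole cluster 6 of 10 genes with a promoter hold the loose letters, and these include Serpinb5 and Serpinb12, which had 0 reads. On chromosome 13 none of 14 genes holds them. On chromosome 12 they are in 4 of 18 genes, Serpina1a to Serpina1d, which hold the stricter letters too and had no reads. Of the 61 member promoters on all chromosomes 11 hold the loose letters, or 18%, against 6.75% of all promoters. The TATA box letters TATAAA were in 7 of the 10 genes on chromosome 1, Serpinb2 (at -29), Serpinb7 and 5 others with at most 19 reads, against 14.3% of all genes. The octamer letters ATGCNAAT, which Oct4 can bind, were in none of the 4 windows shown but in those of Serpinb3b and Serpinb3c, against 3.27% of all genes. The core letters CATTGT of SOX factors were in none of the 10 windows on chromosome 1, against 12.2% of all genes. Of 61 promoters of 52 serpin members on all chromosomes, 5 hold CATTGT, or 8.2%, against 10.7% of all promoters. That of Serpinf1 holds it, at -35. A match or its lack describes letters only, and no binding was measured.

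On chromosome 13 the most expressed member was at a like level in both libraries, and the Serpinb9 copies were lower in sum. Serpinb6a encodes an inhibitor of trypsin-like proteases and cathepsin G and lies at 33917918 to 34002794 on the minus strand. It was at 75.1 FPKM in control cells against 73.8 in Oct4/SOX2 cells, from 12968 and 12713 reads, a fold of 0.982 (0.949 to 1.02). Its sign turned under 2 other scalings. Nqo2 and Ripk1 overlap it on the opposite strand, and whether reads kept their strand is not given in the sources used here. Nqo2 itself stood at 20.4 and 19.2 FPKM.

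Serpinb9 encodes the inhibitor of granzyme B, the protease that killer lymphocytes deliver into target cells. It was at 6.26 FPKM in control cells against 3.63 in Oct4/SOX2 cells, from 698 and 404 reads, 1.72-fold lower (1.45 to 2.06). Its neighbour Serpinb9b was at 10.9 and 5.50 FPKM, from 1169 and 587 reads, 1.99-fold lower (1.72 to 2.30). On the FPKM + 1 scale both stayed within 2-fold, at -0.65 and -0.88. Their coding sequences are 85.3% identical, yet only 0.378% of the 50-base windows of Serpinb9 and 0.478% of those of Serpinb9b occur in any other annotated transcript. Serpinb9c stood at 0.845 and 0.298 FPKM, 2.84-fold lower (1.31 to 6.70), and Serpinb9g at 0.764 and 0.277 FPKM, 2.76-fold lower (1.22 to 6.93). Serpinb9g shares 54.9% of its windows with other genes, Serpinb9e 28.4% and Serpinb9c 18.0%, so their separate values are uncertain. Serpinb9e lay on the other side, at 0.391 and 0.702 FPKM, with an interval that spans 1 (0.847 to 3.99). Added over the 7 Serpinb9 copies, reads went from 2012 to 1089, 1.84-fold lower (1.66 to 2.05). Most of these reads lay on Serpinb9 and Serpinb9b, so the sum mainly restates those genes.

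The windows before Serpinb9 and Serpinb9b are shown because both were lower by a like amount. They are chr13:33004291-33004540 and chr13:33027164-33027413, both on the plus strand of GRCm38.p6 from RefSeq, with capitals on GAAANNGAA in either direction, the core of the interferon-stimulated response element. The deposited position of Serpinb9 starts earlier, at 33003250, so its window lies inside the gene as annotated there.
Serpinb9: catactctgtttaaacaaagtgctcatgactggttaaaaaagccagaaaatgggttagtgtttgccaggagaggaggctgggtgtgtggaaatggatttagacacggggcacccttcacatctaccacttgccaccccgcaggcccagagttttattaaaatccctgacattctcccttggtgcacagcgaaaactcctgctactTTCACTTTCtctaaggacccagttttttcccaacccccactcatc
Serpinb9b: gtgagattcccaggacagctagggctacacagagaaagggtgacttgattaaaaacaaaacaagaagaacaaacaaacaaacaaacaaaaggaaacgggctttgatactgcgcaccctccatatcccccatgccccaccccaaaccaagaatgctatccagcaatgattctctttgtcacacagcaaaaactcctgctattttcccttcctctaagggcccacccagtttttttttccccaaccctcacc

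Serpinb9 holds these letters once, starting at -45, and Serpinb9b does not hold them in this window. They occur in 8.18% of all genes with a promoter, and on chromosome 13 in 2 of 14, Serpinb9 and Serpinb6a. Serpinb7 on chromosome 1, which was higher, holds them too.

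The remaining chromosome 13 members with at least 20 reads had intervals that span 1. Serpinb1a, of the leukocyte elastase inhibitor group, stood at 0.571 and 0.886 FPKM (fold 1.55, 0.869 to 2.82). Serpinb1b stood at 0.455 and 0.163 FPKM (fold 0.358, 0.101 to 1.05). Serpinb6b stood at 0.845 and 0.680 FPKM (fold 0.805, 0.453 to 1.42). The other 6 members of the cluster had at most 19 reads in either library, and Serpinb6d had none.

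Serpinf1 encodes pigment epithelium-derived factor, a secreted non-inhibitory serpin known for restraining blood vessel growth. It had 575 reads or 7.64 FPKM in control cells against 65 reads or 0.865 FPKM in Oct4/SOX2 cells, 8.83-fold lower (6.13 to 13.1). Serpinf1 (ENSMUSG00000000753) lies on the minus strand of chromosome 11 from 75409769 to 75422701, and none of its 50-base windows occurs in another annotated transcript. Its neighbour Serpinf2, the gene for alpha-2-antiplasmin, had 18 reads in control cells against 2 in Oct4/SOX2 cells. Serpinf2 was singled out after its values were seen. Both clade F members thus had fewer reads with Oct4 and SOX2, the second at a level near the floor.

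Serping1, the only clade G member, encodes C1 inhibitor, which blocks the first proteases of complement. It stood at 0.889 FPKM in control cells against 0.243 in Oct4/SOX2 cells, from 66 and 18 reads, 3.66-fold lower (1.71 to 8.70). Its level was under 1 FPKM in both libraries, so it is outside the 8 measured members. Among its targets, C1ra was at 8.30 and 17.8 FPKM, 2.15-fold higher (1.90 to 2.42), and C1s1 at 17.3 and 15.2 FPKM. Masp1, of the lectin arm of complement, stood at 14.96 and 7.20 FPKM, and it and C1s1 were singled out after their values were seen.

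The small clades held few other reads. Serpine2, the gene for protease nexin 1, had 0 and 2 reads and Serpine3 had 0 and 2. Serpini1, for neuroserpin, stood at 0.0946 and 0.190 FPKM (fold 2.004, 0.931 to 4.58), and Serpini2 had 0 reads in both libraries. Serpinc1, for antithrombin, stood at 0.0953 and 0.0661 FPKM (fold 0.694, 0.262 to 1.75), and Zbtb37, with 1098 and 1464 reads, overlaps it on the opposite strand. Serpind1, for heparin cofactor II, had 5 and 3 reads.

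Clade A was all but silent in both cultures. Its 24 members held 6 reads in the control, all on Serpina12, and 10 with Oct4 and SOX2, and 20 of them had no read in either library. Among these were all 6 lettered copies of Serpina1, the antitrypsin genes, and Serpina3n, an antichymotrypsin gene. A count of 0 allows up to 3 fragments or 6 reads. Over the lengths of these 20 genes that is 0.0512 to 0.138 FPKM in control cells. In Serpina1a to Serpina1e, 29.45% (Serpina1b) to 74.2% (Serpina1c) of the 50-base windows also occur in other genes, and in Serpina1f none do. The handling of reads with several matches is not given, so the zeros of the copies that share windows are less certain. Of the 24 genes 23 form a cluster on chromosome 12 from 103614786 to 104414329, with no other protein-coding gene of the table inside it. The nearest measured genes outside it were expressed, Ifi27l2a at 152 and 101 FPKM on one side and Dicer1 at 5.74 and 5.27 FPKM on the other. Liver markers were near 0 as well, with 0 of 5 measured and Alb and Ttr at 0 reads. The 7 serpin rows of the table that are annotated as pseudogenes summed to 2 reads in control cells against 14 in Oct4/SOX2 cells.

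At low levels the call depends on the scale, since adding 1 FPKM shrinks the ratios of genes below it. Over the 19 members with at least 20 reads, 3 were at least 2-fold higher in plain FPKM (Serpinb2, Serpinb11 and Serpini1) and 5 at least 2-fold lower (Serpinf1, Serping1, Serpinb9c, Serpinb9g and Serpinb1b). Most of these passed the filter only through the library where they were high. Serpinb2 and Serpinb11 reached 20 reads only in Oct4/SOX2 cells, and Serping1, Serpinb9c, Serpinb9g and Serpinb1b only in control cells. The intervals of Serpini1 and Serpinb1b span 1. The same rule called 5.48% of all 14501 genes with that many reads higher and 5.43% lower. The intervals of 4 of the 19 members lay wholly above 1 and those of 7 wholly below. Over all 14501 genes these shares were 24.5% and 27.5%.

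The plasminogen system that the product of Serpinb2 acts on was only partly present. Plau, the gene for urokinase, had 0 reads in control cells against 2 in Oct4/SOX2 cells, and Plg, for plasminogen, had 2 in each. Plat, for tissue plasminogen activator, was at 2.03 and 0.940 FPKM, 2.16-fold lower (1.68 to 2.79). These 3 genes were singled out after their values were seen. Of 22 listed genes of plasminogen activation and its receptors 15 were measured, 7 above 0 and 8 below with a median of -0.02, and none passed 2-fold on the FPKM + 1 scale. The most expressed were Anxa2, a cell-surface plasminogen binder, at 280 FPKM in control cells against 475 in Oct4/SOX2 cells, and Eno1 at 370.2 and 366 FPKM.

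A list of 49 genes, mostly for serine proteases that serpins can inhibit, held 15 measured genes. Of these 3 were at least 2-fold higher and 1 at least 2-fold lower, with a median of 0.03. Over all 12401 measured genes, 2.42% were at least 2-fold higher and 1.85% at least 2-fold lower. With so few measured genes, the counts of this list and those below are given as a description. Prf1, Thbd and Procr on this list encode no protease, and Procr is among the measured genes. The higher genes were Tmprss11d, an airway-type membrane protease gene, from 0.157 to 10.04 FPKM, Klk10, a kallikrein gene, from 23.0 to 89.5 FPKM, and C1ra. Of these, Tmprss11d reached 1 FPKM only in Oct4/SOX2 cells, where it was high. The lower gene was Prss12, for neurotrypsin, at 5.27 and 1.93 FPKM, 2.73-fold lower (2.11 to 3.58). Of 17 cathepsins and other intracellular proteases 10 were measured, none past 2-fold, with 9 below 0 and a median of -0.29. The most expressed were Ctsl, a cysteine cathepsin gene, at 298 and 201 FPKM and Ctsz at 189 and 160 FPKM. Of 45 other secreted or cytosolic protease inhibitors 6 were measured. Spink10, a Kazal-type inhibitor gene, stood at 0.180 and 19.9 FPKM from 9 and 994 reads. Spink7 had 0 and 9 reads, and both were at least 2-fold higher on the FPKM + 1 scale, though both reached 1 FPKM only in Oct4/SOX2 cells and the interval of Spink7 spans 1, with a lower limit of 0.789.

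**Figure D4:**
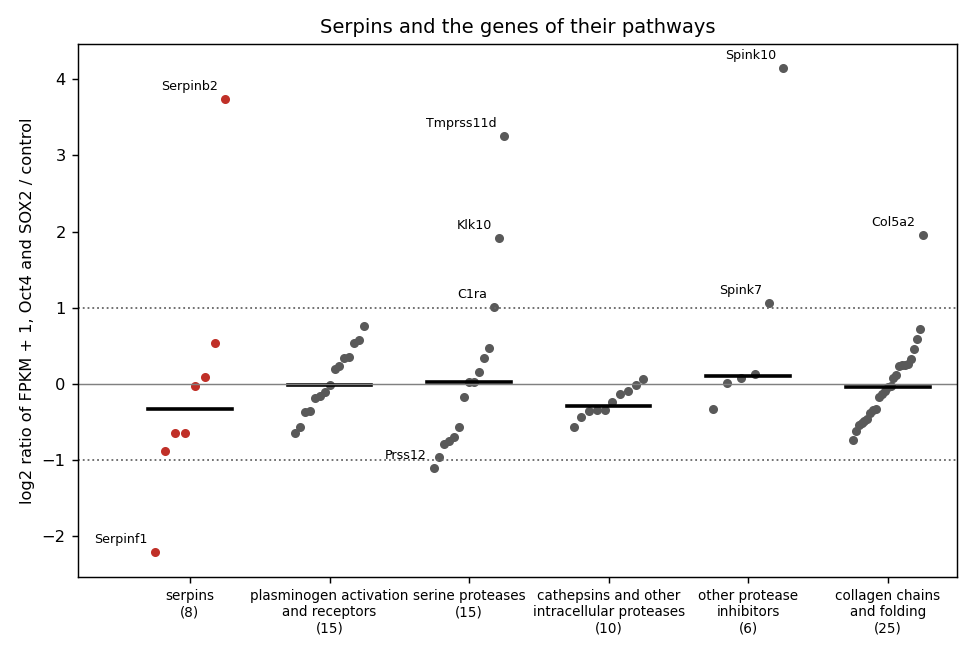
Log2 ratio of FPKM + 1 (Oct4 and SOX2 over control) of the measured serpins and of the measured genes in 5 lists, with each gene a point, thick bars for medians, dotted lines at 2-fold, gene numbers in brackets and genes past 2-fold named. The serpin median lies at -0.33 with Serpinb2 and Serpinf1 beyond the lines, and the plasminogen and collagen lists are centred near 0, with medians of -0.02 and -0.03.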

How the data were processed

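The authors deposited 1 table of FPKM values for both libraries with gene length, position and biotype. CASAVA, HISAT2 and featureCounts 1.5.0-p3 on GRCm38 are named per the submitters' processing notes. No source used here gives the FPKM formula, the strandedness or the handling of reads with several matches. Multiplied by gene length, 100% of the values were whole multiples of a unit set by the library, within 0.001 of a read, which gave back the read numbers. In the control 2223 genes had 2 reads and 1170 had 1, and 1100 had 4 while 602 had 3. Both ends of a fragment thus appear to be counted, so intervals and floors were computed on reads divided by 2. This was decided after the data had been seen and widens them.

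A gene counted as measured at 1 FPKM or more in either library. The log2 ratio used a pseudocount of 1 FPKM, which understates differences of low genes, and calls were at least 2-fold on that scale. Folds given in prose are ratios of plain FPKM, with exact 95% counting intervals (conditional binomial, Clopper-Pearson), and a library at 0 was set to a floor of 3 fragments, or 6 reads. These intervals and floors leave out all error but that of counting, and PCR duplicates make even that too small. No test across samples is possible with 1 library per group.

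Every member with at least 1 FPKM or at least 20 reads in 1 library was named, except 1 that is counted in the totals and not reported here, and from each pathway list the genes past 2-fold or otherwise the 2 most expressed. The members and lists were chosen with earlier results of these data known. Sequences come from RefSeq promoters (52 of 61 members matched) and GENCODE M21 transcripts, and windows of 50 bases shared between transcripts were counted there. The ratio and interval steps were tested on simulated data. The settings varied were the pseudocount (0.1 and 5), the filter (none and 5 FPKM), median centring, scaling without the 50 highest genes, plain read totals, an interval wholly beyond 2-fold and a rule of 1.5-fold. Python 3.11.15, numpy 2.4.6, pandas 2.3.3, scipy 1.17.1, biopython 1.88 and matplotlib 3.10.9 were used.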

Additional observations from a re-analysis of the deposited data

How the results depend on the processing

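The counts of 1 measured serpin at least 2-fold higher and 1 at least 2-fold lower were the same with pseudocounts of 0.1 and 5 FPKM, with no filter, with a filter of 5 FPKM, under median centring, under scaling without the 50 highest genes, with plain read totals and where the counting interval had to lie wholly beyond 2-fold, also with every read taken as independent. The plain FPKM rule over 19 members with at least 20 reads, chosen after the data had been seen, gave 3 higher and 5 lower. That rule changes both the scale and the filter, and most members it called reached 20 reads in only 1 library. The median log2 ratio of the measured members, -0.33, is less stable, as it falls between Serpinb6a and Serpinh1. It was -0.20 with a pseudocount of 5, -0.64 with a filter of 5 FPKM (7 members), -0.32 under median centring and -0.30 with plain read totals. It turned to 0.0275 with no filter (35 members) and to 0.0072 without the 50 highest genes, where Serpinb8 passes 1 FPKM and 9 members enter. Among the 19 members with at least 20 reads the sign of the ratio changed only for Serpinb6a, under 2 settings. With a rule of 1.5-fold, Serpinb9 and Serpinb9b of chromosome 13 and Serpinh1 join the lower members. Members with few reads are limited by depth, and their counting intervals are wide. No paired analysis was possible because each group has 1 library.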
